A study of Capra hircus with 2 samples.

Results

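The miR-148 and miR-152 family is a set of 3 microRNAs (miRNAs), miR-148a, miR-148b and miR-152, whose 3p arms carry the same seed. Its members were taken by name: every listed hairpin arm whose representative name, without species prefix, copy number and arm suffix, was miR-148a, miR-148b or miR-152. This gave 26 listed entries, 13 in each library, which fall under 6 of the 1808 names (a miRNA and its 5p or 3p arm) found in both libraries together. All 6 names had reads in both libraries. The tissue was testis of Saanen dairy goats aged 5 months, with 3 testes from 3 goats taken apart by digestive enzymes. After a night in culture the cells that had not attached were split with magnetic beads by CD49f. CD49f, the integrin subunit alpha 6, sits on the surface of spermatogonia and also of other cell types. Both groups thus shared the digestion, the overnight plating meant to remove Sertoli and myoid cells, and the sort. Each group is represented here by 1 small RNA library, although the series text speaks of triplicates, and whether cells of the goats were pooled is not stated. The differences below are therefore between 2 libraries, with no replicate to check them and no test.

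A miRNA guides its silencing complex to messenger RNAs that pair with its seed, bases 2 to 8, and lowers their stability and translation. The best known target of this family, from human and mouse cells, is DNMT1, the enzyme that copies DNA methylation onto newly made DNA strands, and miR-148a is also known to repress the de novo enzyme DNMT3B. In the testis, methylation of the germline is set before spermatogenesis and is kept through the divisions of spermatogonia. No messenger RNA or methylation was measured here, so the data concern the level of the miRNAs alone.

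The 3p sequences are printed because their likeness decides how far reads of the members can be told apart; capitals mark the seed, and T stands for U as in the deposited files. The same 3 sequences were the most copied form of each 3p arm in both libraries.
miR-148a-3p: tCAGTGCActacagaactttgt
miR-148b-3p: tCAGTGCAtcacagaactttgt
miR-152-3p: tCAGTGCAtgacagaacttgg
All 3 shared the seed CAGTGCA. Counted from 1 at the 5′ end, miR-148a-3p and miR-148b-3p differed at 2 of 22 bases, C9T and T10C. miR-148b-3p and miR-152-3p differed at 2 of the 21 bases they share, C10G and T20G. miR-148a-3p and miR-152-3p differed at 3 of 21 bases, C9T, T10G and T20G. The bases at positions 9 and 10, just after the seed, therefore separated the members.

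The 5p arms, which come from the opposite side of each hairpin, had other seeds, again in capitals.
miR-148a-5p: aAAGTTCTgagacactccgact
miR-148b-5p: gAAGTTCTgttatacactcaggc
miR-152-5p: aGGTTCTGtgatacactccgact
miR-148a-5p and miR-148b-5p shared the seed AAGTTCT, while miR-152-5p had GGTTCTG. The miR-152-5p sequence is the one listed in the CD49f-positive library.

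Hairpins of 2 members were placed on the goat genome, in a build that is not given in the sources used here. That of miR-148a lay at chr4:67462791-67462875 on the plus strand and that of miR-148b at chr5:25002575-25002683 on the minus strand. Both are shown 5′ to 3′ with the arms in capitals, as the files give them, since they show where the arms lie.
miR-148a hairpin: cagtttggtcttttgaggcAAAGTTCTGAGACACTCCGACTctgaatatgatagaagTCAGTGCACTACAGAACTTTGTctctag
miR-148b hairpin: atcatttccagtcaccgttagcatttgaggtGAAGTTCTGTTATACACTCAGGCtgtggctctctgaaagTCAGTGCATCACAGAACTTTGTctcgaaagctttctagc
In RefSeq's annotation of the goat assembly ARS1.2, miR-148b lies within COPZ1, a gene for a coat protein of transport vesicles. miR-148a lies there within a long non-coding RNA gene. These RefSeq hairpins are 85 and 109 bases long, the same lengths as in the deposited files.

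miR-152 was placed differently. Its reads matched miR-152 hairpins of other mammals that were not placed on the goat genome, which held 97.0% of miR-152-3p reads in the CD49f-positive library, against 97.7% in the CD49f-negative library. The cattle hairpin among them is printed to show the arm the reads matched, in capitals.
cattle miR-152 hairpin: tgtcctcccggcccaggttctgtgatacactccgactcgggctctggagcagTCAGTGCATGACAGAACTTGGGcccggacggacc
In the CD49f-positive library its 3p reads were split almost evenly between the cattle record (7385.5 reads) and the gorilla record (7382.5 reads). The CD49f-negative library listed the gorilla record alone, with 6361 reads, so the values below use sums over records. All reads of miR-148a and miR-148b lay at their placed hairpins.

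The CD49f-positive library held 8196507 reads of named miRNAs and the CD49f-negative library 3064462, so the positive library was 2.67 times deeper. Levels are given in RPM, reads per 1000000 of these reads, with 95% Clopper-Pearson (exact binomial) intervals. These cover counting error and nothing else, because copies made by PCR were not told apart. Levels of known marker miRNAs differed between the libraries in places: miR-34b, miR-34c and miR-449a, markers of meiotic and later germ cells, summed to 2.25% of CD49f-positive and 11.4% of CD49f-negative reads, with all 3 markers detected in both. Those of smooth muscle and myoid cells, miR-143 and miR-145, held 22.6% and 18.9%, and the endothelial miR-126 held 1.43% and 0.755%. miR-143-3p alone held 22.1% and 18.4%, so the smooth muscle and myoid sum is mostly this arm. The arms of miR-145 went opposite ways: miR-145-3p held 0.280% and 0.190%, and miR-145-5p 0.123% and 0.289%. The Sertoli marker miR-202 held 0.0320% of CD49f-positive and 0.0823% of CD49f-negative reads (log2 ratio -1.36), and the epithelial list 0.00316% and 0.00933% (-1.56). The fibroblast, red and white blood cell lists held 0.0197% to 0.489% of CD49f-positive and 0.0248% to 0.560% of CD49f-negative reads, with log2 ratios of -0.33 to -0.20. These are ratios of sums, and single markers within a list went different ways. Of the white blood cell markers, miR-155-5p was at 0.59 and miR-223-3p, with 18 and 5 reads, at 0.33. By contrast miR-142-3p was at -0.96, miR-142-5p at -0.79 and miR-150-5p at -0.72. In the fibroblast list miR-214-3p was at 0.06, while miR-214-5p, with 54 CD49f-positive and 53 CD49f-negative reads, was at -1.39. Of the epithelial markers 5 of 6 were detected in each library, with miR-205 at 0 in both, and the markers of the other lists were detected in both. The epithelial sum is mostly miR-200b-3p, with 235 of 259 CD49f-positive and 271 of 286 CD49f-negative reads. What part these differences in marker levels have in the family's values was not tested, and fewer cells of a type cannot be told apart from less RNA per cell.

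The family took a smaller share of reads in CD49f-positive cells with read totals. Its 6 names held 93217 reads in the CD49f-positive library, against 53279 in the CD49f-negative library. This was 1.14% of CD49f-positive reads (95% interval 1.13 to 1.14) and 1.74% of CD49f-negative reads (1.72 to 1.75). The log2 ratio of shares, CD49f-positive over CD49f-negative, was -0.61 (-0.63 to -0.60) for the family sum, a share 1.53 times lower. The median over all 298 names with at least 100 summed reads was -0.43 on the same scale. The 3p arms held 99.6% of family reads in the CD49f-positive library, against 99.7% in the CD49f-negative library, so the family sum is a value of the 3p arms.

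miR-148a-3p, the member best known for repressing DNMT1, was the most abundant. It had 61216 reads, or 7469 RPM (7410 to 7528), in the CD49f-positive library, against 37344.5 reads, or 12186 RPM (12064 to 12310), in the CD49f-negative library. It ranked number 15 by reads among CD49f-positive names and number 8 among CD49f-negative names. Its log2 ratio was -0.71 (-0.72 to -0.69), which is 0.28 below the median of all names tested, and 105 of the 298 names had a lower ratio. The share of this member was thus 1.63 times lower in CD49f-positive cells, short of 2-fold.

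miR-148b-3p, which differs from it at positions 9 and 10, stood well below it in each library, with 26.8 reads per 100 of miR-148a-3p in the CD49f-positive library, against 24.7 in the CD49f-negative library. It had 16376 reads, or 1998 RPM (1967 to 2029), in the CD49f-positive library, against 9237.5 reads, or 3014 RPM (2953 to 3077), in the CD49f-negative library. The log2 ratio was -0.59 (-0.63 to -0.56). Its place was number 35 among CD49f-positive names and number 27 among CD49f-negative names.

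miR-152-3p had the highest log2 ratio of the 3p arms. It had 15231 reads, or 1858 RPM (1829 to 1888), in the CD49f-positive library, against 6511 reads, or 2125 RPM (2073 to 2177), in the CD49f-negative library. It ranked number 36 among CD49f-positive names and number 39 among CD49f-negative names. Its log2 ratio of -0.19 (-0.24 to -0.15) lay 0.23 above the median of all names tested, on the other side of it from both miR-148 arms. The order of levels was miR-148a-3p, miR-148b-3p, miR-152-3p in both libraries, and the intervals of neighbours in that order did not overlap in either, although no replicate shows how far they vary between preparations.

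**Figure D1:**
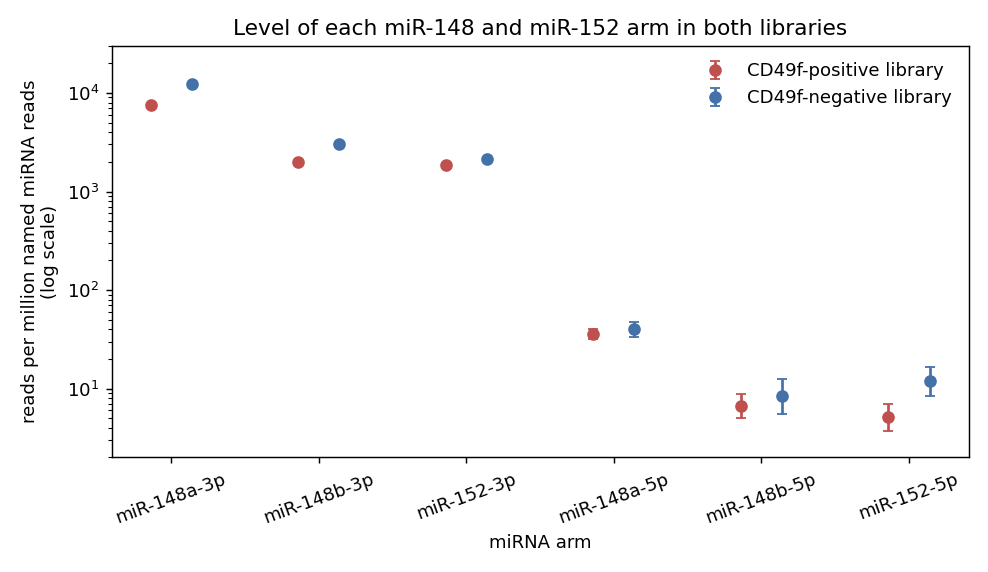
Level of the 6 arms in RPM, on a log scale, in the CD49f-positive library (red) and the CD49f-negative library (blue); bars are 95% Clopper-Pearson intervals, which are smaller than the points for the 3p arms. miR-148a-3p stands at 7469 and 12186 RPM, miR-148b-3p and miR-152-3p lie between 1858 and 3014, and the 5p arms lie between 5.12 and 40.1. The 2 points of miR-152-5p are not a comparison, because the listed form of the CD49f-negative entry lies outside the 5p arm.

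None of the 4 arms with at least 100 summed reads, which are the 3 3p arms and miR-148a-5p, met the 2-fold rule (a 2-fold or larger ratio whose interval leaves out 1). Over all 298 names tested, 2.01% met it as higher and 24.8% as lower in CD49f-positive cells. The remaining 2 arms, miR-148b-5p and miR-152-5p, had too few reads to be tested.

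**Figure D2:**
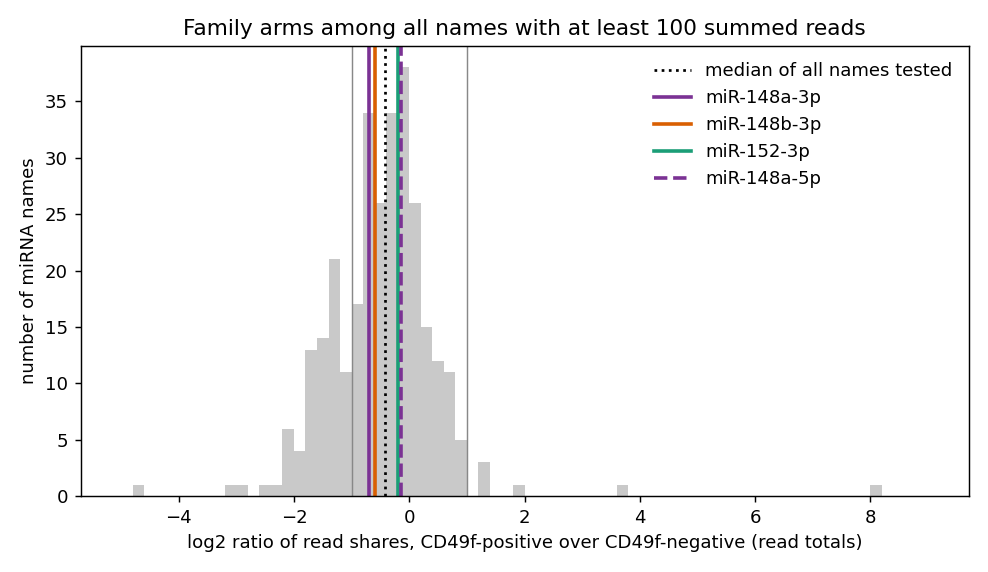
Number of miRNA names by log2 ratio of read shares (CD49f-positive over CD49f-negative, read totals) for the 298 names with at least 100 summed reads, in bins of equal width; coloured lines mark the family arms, the dotted line the median of all names and the thin lines 2-fold. The bar farthest right is a name with 0 CD49f-negative reads, placed there by the 0.5 reads added to each count. miR-148a-3p (-0.71) and miR-148b-3p (-0.59) lie below the median of -0.43, miR-152-3p (-0.19) and miR-148a-5p (-0.15) above it, and all 4 lie inside the 2-fold lines.

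The direction of the members' ratios depends on the scaling of the libraries. TMM scaling, which gives the few dominant miRNAs less weight, shifts every log2 ratio up by 0.45 and puts the median of all names at 0.02. miR-148a-3p was then at -0.26, miR-148b-3p at -0.15 and miR-152-3p at 0.25, which turned the direction of miR-152-3p. Median-of-ratios scaling, with a shift of 0.60, gave -0.11, 0.01 and 0.41. The family sum was -0.17 under TMM and -0.01 under median-of-ratios scaling. Both sets of factors came from names with at least 10 summed reads. With TMM factors from names with at least 1 read, the shift was 0.82 and every 3p arm turned above 0, with miR-148a-3p at 0.11, miR-148b-3p at 0.23 and miR-152-3p at 0.63. No arm of the family met the 2-fold rule under these scalings, with which 9.06% of the 298 names met it as higher and 13.4% as lower for TMM, and 11.4% and 9.4% for the median of ratios.

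The relation between members is free of the scaling, since all were read from the same library. miR-152-3p had 24.9 reads per 100 of miR-148a-3p in CD49f-positive cells, against 17.4 in CD49f-negative cells, a ratio 1.43 times higher in CD49f-positive cells (exact conditional 95% interval 1.38 to 1.47). Against miR-148b-3p it had 93.0 reads per 100 in CD49f-positive and 70.5 in CD49f-negative cells, 1.32 times higher (1.27 to 1.37). Both differences were smaller but in the same direction over reads with no mismatch, at 1.23 (1.18 to 1.29) against miR-148a-3p and 1.23 (1.17 to 1.30) against miR-148b-3p. The printed sequences alone gave 1.27 (1.22 to 1.33) and 1.22 (1.16 to 1.29).

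The pair with the more alike sequences at the 3′ end, miR-148b-3p and miR-148a-3p, kept nearly the same proportion in both libraries. miR-148b-3p relative to miR-148a-3p was 1.08 times higher in CD49f-positive cells over all reads (1.05 to 1.11). Over reads with no mismatch the ratio was 0.999 (0.965 to 1.03), with 21.4 reads per 100 in CD49f-positive and 21.5 in CD49f-negative cells, and over the printed sequences it was 1.04 (1.002 to 1.08).

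As a share of the family, miR-148a made up 66.0% of reads in the CD49f-positive library (65.7 to 66.3), against 70.3% in the CD49f-negative library (69.9 to 70.7), both arms counted. miR-148b made up 17.6% (17.4 to 17.9) in CD49f-positive and 17.4% (17.1 to 17.7) in CD49f-negative cells, and these intervals overlap. miR-152 made up 16.4% (16.1 to 16.6) in CD49f-positive and 12.3% (12.0 to 12.6) in CD49f-negative cells. These 3 shares sum to the whole, so a higher one goes with a lower one elsewhere.

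**Figure D3:**
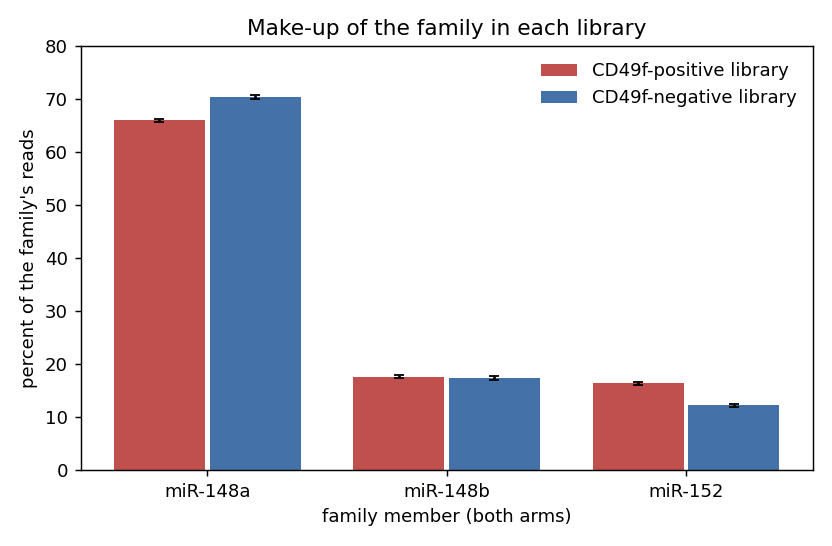
Percent of the family's reads that came from each member, both arms counted, in the CD49f-positive library (red, left) and the CD49f-negative library (blue, right); bars start at 0 and error bars are 95% Clopper-Pearson intervals. miR-148a is lower in the CD49f-positive library (66.0% and 70.3%), miR-152 is higher there (16.4% and 12.3%), and miR-148b is alike (17.6% and 17.4%).

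The reads of each 3p arm were then divided into the printed sequence, other reads with no mismatch, and reads with a mismatch. Log2 ratios over a kind of read are of shares of all named reads of that kind, so their denominators differ. For miR-148a-3p the printed sequence had 43249 copies, 70.6% of its reads, in the CD49f-positive library, against 24903 copies, 66.7%, in the CD49f-negative library. Mismatched reads were 12.2% (12.0 to 12.5) of this arm in CD49f-positive cells, against 20.4% (20.0 to 20.8) in CD49f-negative cells. Over all named miRNAs the mismatched share was 32.7% in the CD49f-positive and 36.0% in the CD49f-negative library, so miR-148a-3p was below the general level in both. As a share of all mismatched reads, its mismatched reads had a log2 ratio of -1.31 (-1.35 to -1.26). Its reads with no mismatch, as a share of all such reads, were at -0.64.

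miR-148b-3p had its printed sequence in 59.8% of CD49f-positive reads (9797 copies) and 58.7% of CD49f-negative reads (5427 copies). Its mismatched share was 29.7% (29.0 to 30.4) in CD49f-positive and 31.0% (30.0 to 31.9) in CD49f-negative cells, and its log2 ratio over reads with no mismatch was -0.64, the same as that of miR-148a-3p. The gap between the ratios of both miR-148 3p arms, -0.71 and -0.59 over all reads, was thus not seen over reads with no mismatch. Over the printed sequences alone, as shares of the most copied sequences of all names, the ratios were -0.77 for miR-148a-3p and -0.71 for miR-148b-3p.

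miR-152-3p was mostly read with a mismatch to the hairpin it was assigned to. Mismatched reads made up 53.8% (53.0 to 54.5) of it in CD49f-positive and 51.4% (50.1 to 52.6) in CD49f-negative cells. The printed 21-base sequence had 6892 copies in the CD49f-positive and 3121 in the CD49f-negative library, 45.2% and 47.9% of the arm. Other reads with no mismatch were 0.998% of miR-152-3p in CD49f-positive cells, against 0.706% in CD49f-negative cells. For miR-148a-3p, whose hairpin was placed on the goat genome as those of miR-152 were not, they were 17.1% and 12.9%. What part the placing of the hairpins has in these shares was not tested. Over reads with no mismatch miR-152-3p had a log2 ratio of -0.34 (-0.40 to -0.28), and over mismatched reads alone one of 0.01 (-0.05 to 0.07), each against the total of its kind.

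**Figure D4:**
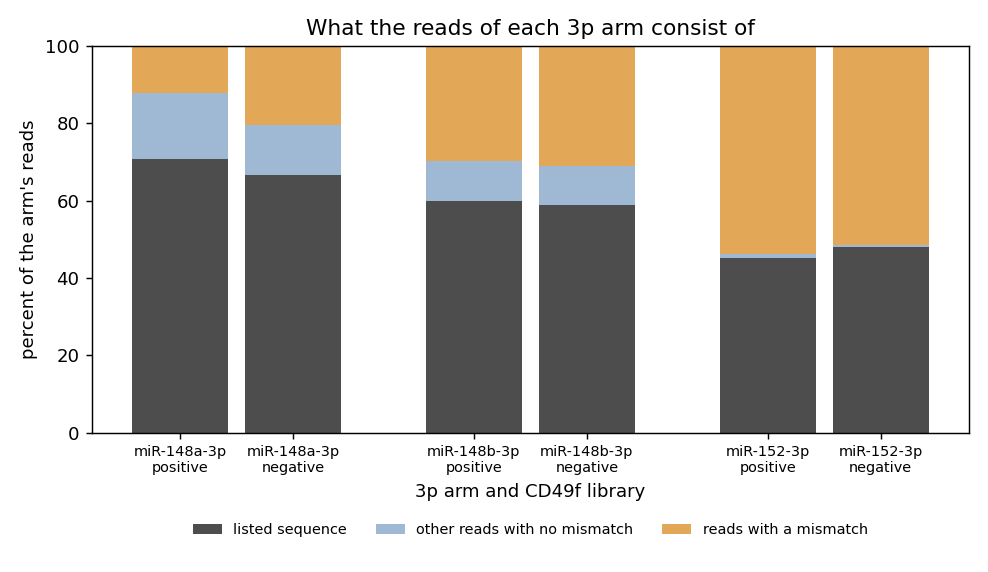
Percent of each 3p arm's reads in the listed sequence (dark), in other reads with no mismatch (blue) and in reads with a mismatch (orange), with the CD49f-positive library left of the CD49f-negative library for each arm. Mismatched reads take 12.2% and 20.4% of miR-148a-3p, 29.7% and 31.0% of miR-148b-3p, and 53.8% and 51.4% of miR-152-3p.

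Part of the miR-152 reads overlapped a second member's hairpin. An 18-base form, shown with the seed in capitals, was listed under miR-152 in a region at chr5:25002475-25002733 that contains the whole miR-148b hairpin on the same strand.
miR-152-3p, 18 bases: tCAGTGCAtgacagaact
Against the start of miR-148b-3p this form differs at 1 of 18 bases, C10G. The entry had 433 reads, 2.84% (2.58 to 3.12) of miR-152-3p, in the CD49f-positive library, against 115 reads, 1.77% (1.46 to 2.12), in the CD49f-negative library, and 0 of them were without a mismatch there. Its log2 ratio was 0.49 (0.19 to 0.80). Without this entry and those at other loci outside miR-152 hairpins, miR-152-3p had a log2 ratio of -0.20, against -0.19 with them.

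The 5p arms were rare. miR-148a-5p had 297 reads, 36.2 RPM, in the CD49f-positive library, against 123 reads, 40.1 RPM, in the CD49f-negative library. Its log2 ratio was -0.15 (-0.46 to 0.17), an interval that includes equal shares, and it turned to 0.29 under TMM and 0.45 under median-of-ratios scaling. The 5p arm took 0.483% (0.430 to 0.541) of miR-148a reads in CD49f-positive cells, against 0.328% (0.273 to 0.392) in CD49f-negative cells. Relative to miR-148a-3p it was 1.47 times higher in CD49f-positive cells (1.19 to 1.83), and 1.40 times (1.12 to 1.77) over reads with no mismatch. The proportion of the arms of this hairpin thus differed between these 2 libraries, by intervals that cover counting error only. This comparison also does not depend on the scaling.

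miR-148b-5p had 55 reads, 6.71 RPM (5.06 to 8.73), in the CD49f-positive and 26 reads, 8.48 RPM (5.54 to 12.4), in the CD49f-negative library. Its share of miR-148b reads was 0.335% (0.252 to 0.435) in CD49f-positive and 0.281% (0.183 to 0.411) in CD49f-negative cells, a difference not detectable at this depth. The listed form was 23 bases long with 13 copies in the CD49f-positive library, against 22 bases long with 9 copies in the CD49f-negative library.

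The miR-152-5p values of both libraries have listed forms from different stretches of the hairpin, so no difference is read from them. In the CD49f-positive library it had 42 reads, and its listed 23-base form, with 21 copies, covers bases 33 to 55 of the gorilla hairpin. In the CD49f-negative library it had 37 reads, 10 of them with no mismatch, and its listed form covers bases 17 to 31 of that hairpin just before the 5p arm. That form is shown for contrast with the 5p sequence above, with its bases 2 to 8 in capitals.
miR-152-5p entry, CD49f-negative: cTCTCCCCcccggcc
It had 23 copies and 1 mismatch, G3C, counted from its own 5′ end.

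**Figure D5:**
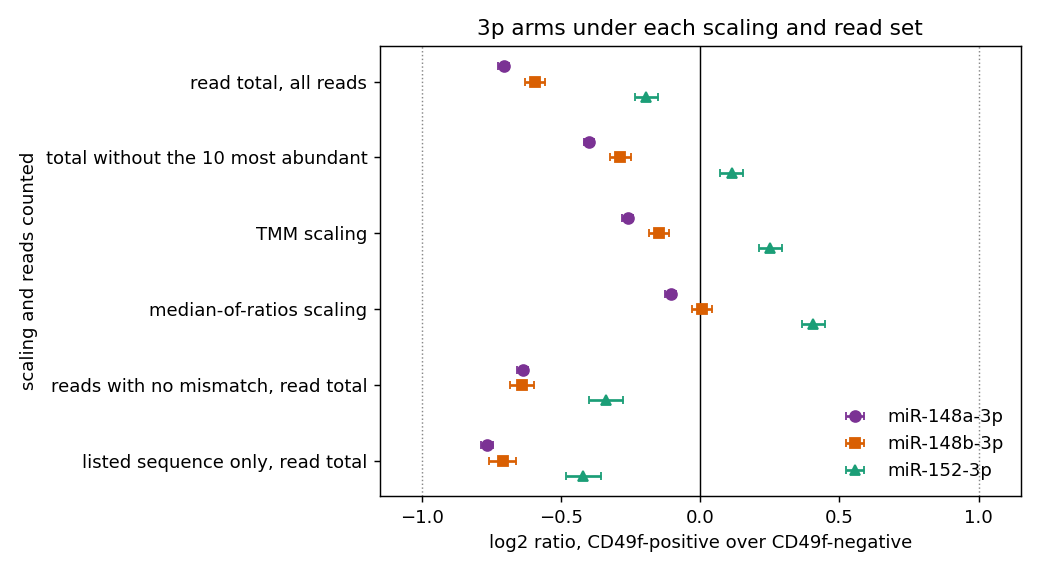
Log2 ratio, CD49f-positive over CD49f-negative, of the 3 3p arms under each scaling (first 4 rows). Below these are reads with no mismatch and the listed sequence alone. Each is a share of the total of such reads or sequences over all names, not of all named reads. Bars are 95% intervals and dotted lines mark 2-fold. miR-152-3p lies to the right of both miR-148 arms in every row, and it lies above 0 with TMM (0.25), with median-of-ratios factors (0.41) and with a total that omits the 10 top names (0.11).

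Other miRNAs known to target DNA methyltransferases were set beside the family: miR-29a, miR-29b, miR-29c, miR-143 and miR-101, linked to DNMT3A or DNMT3B, and miR-185, miR-342 and miR-126, linked to DNMT1, all in human or mouse cells. Of these 8 miRNAs, 11 arms had at least 100 summed reads. Of those arms, 1 met the 2-fold rule as higher in CD49f-positive cells, 0 as lower and 10 met neither, beside 2.01% higher and 24.8% lower among all 298 names. The median log2 ratio of these 11 arms was 0.02, against -0.43 over all names tested, with 6 arms above 0 and 5 below. Their number includes arms of miR-143 and miR-126, which are also the smooth muscle and endothelial markers given above. The arm that met the 2-fold rule was miR-29a-5p, with 92 reads in CD49f-positive and 14 in CD49f-negative cells and a log2 ratio of 1.25 (0.48 to 2.22). Over its reads with no mismatch, 65 in CD49f-positive and 14 in CD49f-negative cells, it stood at 0.68 (-0.13 to 1.67) and no longer met the rule. miR-29c-5p, too rare to be tested, had 0 reads in CD49f-positive and 22 in CD49f-negative cells. With TMM scaling 3 arms were higher and 0 lower, beside 9.06% and 13.4% of all names. The 3 were both arms of the endothelial marker miR-126, and miR-29a-5p.

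Main arms of this list went both ways. miR-126-3p, also the endothelial marker, had 13166 RPM in CD49f-positive and 6955 in CD49f-negative cells, with a log2 ratio of 0.92 (0.90 to 0.94). miR-101-3p, with 8217 and 9804 RPM, had a log2 ratio of -0.25, and miR-143-3p, with 221239 and 184230 RPM, one of 0.26. miR-342-3p, at 416 and 677 RPM, had a log2 ratio of -0.70 (-0.78 to -0.62), near that of miR-148a-3p. miR-185-5p was at 0.03 (-0.07 to 0.13), miR-29a-3p at -0.11, miR-29b-3p at 0.02 and miR-29c-3p at -0.51. Nearly all miR-29c-3p reads had a mismatch. Of its 156.6 CD49f-positive and 82.9 CD49f-negative reads, 1 and 0.25 had none. Main arms linked to DNMT1 therefore held values from -0.71 for miR-148a-3p to 0.92 for miR-126-3p.

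By level in both libraries, measured as the distance between log2 RPM over 2 values, the names nearest to miR-148a-3p were miR-101-3p (0.34), miR-99b-5p (0.39), miR-191-5p (0.62) and miR-27b-3p (0.74). Their log2 ratios lay between -0.39 and -0.19, above the -0.71 of miR-148a-3p. Nearest to miR-148b-3p were miR-716b-3p (0.23), miR-16b-5p (0.23), miR-30e-5p (0.26) and miR-92a-3p (0.31), with log2 ratios between -0.54 and -0.17, above the -0.59 of miR-148b-3p. Nearest to miR-152-3p were miR-16a-5p (0.21), miR-451-5p (0.24), miR-716b-3p (0.32) and miR-30e-5p (0.33), with log2 ratios between -0.54 and -0.22, below the -0.19 of miR-152-3p. With 2 libraries, this likeness is one of abundance. The log2 ratio rests on the same 2 values as the distance, so names near in level have near ratios by construction. Their ratios are therefore no separate reference for those of the members.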

How the data were processed

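Small RNA of CD49f-positive and CD49f-negative goat testicular cells was sequenced on an Illumina GAIIx after TruSeq library preparation, with 1 library per group as labelled. Per the column description deposited with them, mammalian miRBase hairpins, a genome and expressed sequences served for matching the reads. Which aligner, miRBase release and build were used is not given in the sources used here. Reads per arm, as deposited by the authors, are expected counts, since a read that matches several hairpins is split, and those with no mismatch are listed beside them. Copies of the listed sequence are whole counts, and its length and number of mismatches are deposited too.

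Entries were summed by name and arm within each library. An entry with no arm in its name took the arm label with more reads over both libraries. Unnamed entries (0.555% of CD49f-positive and 0.611% of CD49f-negative reads) were left out. Ratios are CD49f-positive over CD49f-negative shares with 0.5 reads added, with exact conditional 95% intervals on rounded counts. For reads with no mismatch, mismatched reads, most copied sequences or placed hairpins, shares are of the total of that read set over all names. The 2-fold rule asked for at least 100 summed reads, a 2-fold ratio and an interval excluding 1. TMM (edgeR 4.0.16) and median-of-ratios factors (DESeq2 1.42.0, R 4.3.3) came from names with at least 10 summed reads; neither tool was used for a test. Ratios between members used conditional odds ratios (SciPy 1.17.1, Python 3.11.15), and the ratio code was tested on simulated data. The text names all member arms, the arms of the DNA methyltransferase list and the 4 names nearest in level to each 3p arm. The members and lists were chosen with earlier results of these data known. Sequences are from the deposited files, and gene symbols from RefSeq.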

Additional observations from a re-analysis of the deposited data

Results flagged for a closer look

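The family seed also stood in a listed sequence outside the family's names. An entry named after mouse miR-878-3p listed the sequence tCAGTGCAtgacacca, whose first 13 of 16 bases are those of miR-152-3p. There were 12 such reads among CD49f-positive cells and 4 among CD49f-negative cells, with 1 mismatch to the mouse hairpin. They drew attention because both numbers exceed the floor of 3 reads set for such entries, in data that enter none of the family sums. An entry of miR-106a-5p also listed the seed, with 1 read in the CD49f-negative library. No group had the 4 libraries needed to look for a library that stands apart.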

How the results depend on the processing

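Each group had 1 library, so none was left out in turn. No paired analysis was possible because the groups have 1 library each and the labels give no replicate numbers. Depth limits the 5p arms, of which 2 had under 100 reads.

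The log2 ratios of miR-148a-3p, miR-148b-3p, miR-152-3p and the family sum were -0.26, -0.15, 0.25 and -0.17 with TMM scaling, -0.11, 0.0062, 0.41 and -0.013 with median-of-ratios scaling, and -0.40, -0.29, 0.11 and -0.31 with a total that leaves out the 10 most abundant names. Reads with no mismatch gave -0.64, -0.64 and -0.34 for the 3 arms, and the most copied sequence gave -0.77, -0.71, -0.42 and -0.72 with the sum. Entries at placed hairpins gave -0.69 for the sum, and miR-152 then has no reads. Each of these read sets was scaled to its own total over all names, so part of a change can come from the total. A prior of 5 reads moved no value of a 3p arm past its interval. The names that set the factors also matter. For the same 4 values, factors from names with at least 1 read gave 0.11, 0.23, 0.63 and 0.21 with TMM and 0.13, 0.24, 0.64 and 0.22 with median-of-ratios scaling. Factors from names with at least 100 reads gave -0.37, -0.25, 0.15 and -0.27, and -0.27, -0.16, 0.24 and -0.18.

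In CD49f-positive and CD49f-negative cells, miR-148a made up 74.4% and 75.7% of family reads with no mismatch, 72.2% and 74.4% of the most copied sequences, and 78.9% and 80.2% at placed hairpins. miR-148b made up 15.9% and 16.2%, 16.3% and 16.2%, and 21.1% and 19.8% under the same 3 settings. miR-152 made up 9.74% and 8.06%, 11.5% and 9.37%, and 0% in both. Thus the miR-152 share was higher in CD49f-positive cells with each read set that holds it, and that of miR-148a lower in all 3.

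The number of names past 2-fold, higher and lower, was 6 and 74 of 298 with read totals, 27 and 40 under TMM, and 34 and 28 under median-of-ratios scaling. Of the same 298 names it was 16 and 52 with a total that omits the 10 top names, and 2 and 11 at 4-fold. Other settings changed how many names were tested. Placed hairpins gave 2 and 51 of 228 names, and the most copied sequence 6 and 47 of 212. A minimum of 10 reads gave 10 and 158 of 592, and a minimum of 500 gave 1 and 35 of 174. The cause of these shifts between scalings was not tested. Of 125 recomputed values 81 moved past their interval or by over 1.5 times and 44 did not. The settings on unplaced miR-152 hairpins and on the names that set the factors were chosen after seeing the data.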

Other observations

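A read named after platypus miR-148-5p, a name without a letter that the family rule does not take, was listed once in the CD49f-positive library, with a length of 15 bases.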
